A study of Mus musculus with 15 samples.

Results

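The 53 genes described here encode enzymes that break down amino acids or act at steps close to that breakdown, in mouse kidney. They were taken by symbol from a fixed list, out of 24421 gene symbols in a table of RNA counts, and sorted into 9 routes: tyrosine, glycine with betaine and creatine, proline and hydroxyproline, branched-chain amino acids, tryptophan, lysine, sulfur amino acids, glutamate with aspartate and arginine, and D-amino acids. All 53 symbols were found. A filter on low counts kept 52 of them among 16752 genes tested, and Agxt was the member that did not pass.

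The samples were kidneys of mice labelled WT, all taken on day 14. The groups compared were sham operation with a normal diet (sham, n = 3), unilateral ureteral obstruction with a normal diet (UUO, n = 6), and the same obstruction with a diet that held a Si-based agent (UUO_Si, n = 6). Obstruction of this kind is made by tying off the ureter on a single side, and the blocked kidney loses tubule cells and scars. As no sham mice had the agent, both operation and diet separate UUO_Si from sham. The sources used here give no strain, age or dose, and nothing in the labels says that replicates were separate animals, so p-values measure the spread between these samples.

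Amino acid breakdown usually starts with removal of the amino group, after which the carbon skeleton is oxidised in mitochondria, cytosol or peroxisomes and enters central metabolism. Liver carries much of this work, but the proximal tubule of the kidney reabsorbs filtered amino acids and is itself rich in these enzymes: it makes arginine from citrulline and guanidinoacetate from arginine and glycine, cleaves glycine, and oxidises proline and hydroxyproline. Several of the enzymes work as complexes, such as the glycine cleavage system and the branched-chain keto acid dehydrogenase, in which all subunits are needed for activity.

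Each library held, in units of 1000000 counts, a total between 5.53 and 8.31 (sham), 11.2 and 15.4 (UUO) or 7.75 and 11.5 (UUO_Si). In 4 libraries (sham replicate 3, UUO replicates 5 and 6, UUO_Si replicate 6) between 791 and 1264 of 1463 olfactory and vomeronasal receptor genes had counts, against 84 to 139 in the other libraries. The 3 obstructed libraries among them also carry sample codes of a different series from the rest of their group, and the sources used here do not say what these codes stand for. Of the 52 members tested, 24 (46.2%) were higher in all 3 of these obstructed libraries than in each of the other 9 obstructed libraries, against 11.4% of all genes tested, and 2 (3.85%) were lower, against 13.9% of all genes. Fold changes of members and route medians that moved by more than 1.5 times without the 4 libraries are given with and without them.

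Bhmt2 and Dmgdh were both sorted into the glycine route, and their promoter windows share DNA. The genes lie head to head on chromosome 13, with Bhmt2 on the minus strand (start at 93674302) and Dmgdh on the plus strand (start at 93674436), so that 133 bases separate the RefSeq start sites. That stretch is shown because both genes fell by similar amounts (values below under glycine). It is given on the plus strand, up to the first exon of Dmgdh in GENCODE M21, at chr13:93674303-93674432 of GRCm38.p6, from the RefSeq promoter windows. Capitals mark the complement of GGGCGG, a GC box.
Bhmt2-Dmgdh: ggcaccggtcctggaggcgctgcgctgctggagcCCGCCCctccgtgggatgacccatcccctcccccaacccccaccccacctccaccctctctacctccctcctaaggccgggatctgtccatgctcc

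Prodh2 and Agxt2, paralogues of Prodh and Agxt, are shown because their upstream DNA held matches to motifs of proximal tubule and liver factors, searched on both strands in windows of 300 bases for the 47 members with a RefSeq window. The motif set was drawn up after the data had been seen. Capitals mark GTTAAT, a half-site of HNF1, in either orientation in Prodh2 (chr7:30493408-30493621, plus strand) and CAAAGTCCA, a site of HNF4, in Agxt2 (chr15:10358283-10358531, plus strand), both from GRCm38.p6 and both ending before the first annotated exon.
Prodh2: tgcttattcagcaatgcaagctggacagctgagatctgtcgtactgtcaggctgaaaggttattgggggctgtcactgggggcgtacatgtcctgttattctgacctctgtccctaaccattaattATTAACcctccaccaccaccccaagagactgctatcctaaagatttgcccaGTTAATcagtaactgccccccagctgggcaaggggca
Agxt2: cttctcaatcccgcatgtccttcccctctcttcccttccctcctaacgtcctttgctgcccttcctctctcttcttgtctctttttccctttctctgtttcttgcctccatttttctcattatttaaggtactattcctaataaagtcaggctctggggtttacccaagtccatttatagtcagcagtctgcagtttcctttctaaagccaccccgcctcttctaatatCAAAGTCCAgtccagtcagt

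GTTAAT was found in windows of 5 of the 47 members (Bckdhb, Got2, Haao, Hoga1 and Prodh2). It was in 8.24% of all 27025 genes with a window and 6.04% of the genes tested. CAAAGTCCA was in 1 of 47 (0.555% of all genes, 0.558% of the genes tested). AGGTCAAAG, a direct repeat bound by nuclear receptors, was in 3 of 47, namely Amt, Dao and Haao (0.488% and 0.469%). GGGCGG was in 25 of 47 members, against 38.2% of all genes and 62.7% of the genes tested. These are matches of letters in a window, not measured binding.

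The first comparison asked how the enzymes' transcripts differed between obstructed and sham kidneys on a normal diet. Of the 52 members tested, 51 fell in UUO and none rose (edgeR quasi-likelihood test, adjusted over all 16752 genes), where 26.4% of all genes fell and 27.5% rose. The median log2 fold change of the members was -2.48, against -0.04 over all genes, and 47 of 52 lay below -1, against 15.1% of all genes. In each of the 51, every UUO library lay below every sham library, which held for 22.3% of all genes. Arg2, the mitochondrial arginase, was the exception. Since these are whole-kidney samples, fewer cells of a type and less RNA per cell cannot be told apart.

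Summed over the 53 members, transcripts made up 0.866% ± 0.111 (SD, n = 3) of the scaled library size in sham. The values were 0.171% ± 0.027 (SD, n = 6) in UUO and 0.175% ± 0.033 (SD, n = 6) in UUO_Si. Percentages here and for the markers are of library sizes after scaling, not of raw counts. Sham libraries lay between 0.740% and 0.950%, while the highest obstructed library held 0.232%. Markers of the proximal tubule moved the same way: 11 of 12 fell in UUO (median log2 fold change -4.38), and their sum ranged from 1.91% to 2.2% in sham and from 0.096% to 0.192% in UUO. All 10 macrophage and all 10 fibroblast markers rose (medians 3.21 and 3.17), and their sums were 0.013% to 0.021% and 0.046% to 0.068% in sham against 0.107% to 0.138% and 0.586% to 1.11% in UUO. The ratio of the summed members to the summed proximal tubule markers was 0.421 ± 0.030 in sham and 1.39 ± 0.181 in UUO, so the markers were reduced more than the enzymes as a whole. Markers of the loop of Henle and distal tubule (7 of 8, median -1.98), the collecting duct (7 of 8, median -1.36) and hepatocytes (4 of 6, with 1 higher) fell, and all 6 urothelial markers rose (median 3.07). Markers of endothelium (3 of 8 lower, 2 higher), podocytes (2 of 6 lower, 2 higher) and T and B cells (3 of 8 higher) were mixed. What part these cell markers have in the enzymes' changes was not tested.

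The routes differed in the size of their falls, as a description without a test between routes. In UUO against sham the median log2 fold change was -3.92 for tyrosine (3 members; -4.60 without the 4 libraries with receptor-gene counts), -3.02 for lysine (3), -2.96 for tryptophan (6), -2.91 for glycine (11 tested) and -1.76 for branched-chain amino acids (14). The smallest fall in the tyrosine route (Fah, -3.60) was larger than the largest in the branched-chain route (Aldh6a1, -2.67). Among the remaining routes the medians were -3.32 for sulfur amino acids (2), -3.20 for proline and hydroxyproline (4), -2.2 for D-amino acids (2) and -1.16 for glutamate, aspartate and arginine (7).

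**Figure D1:**
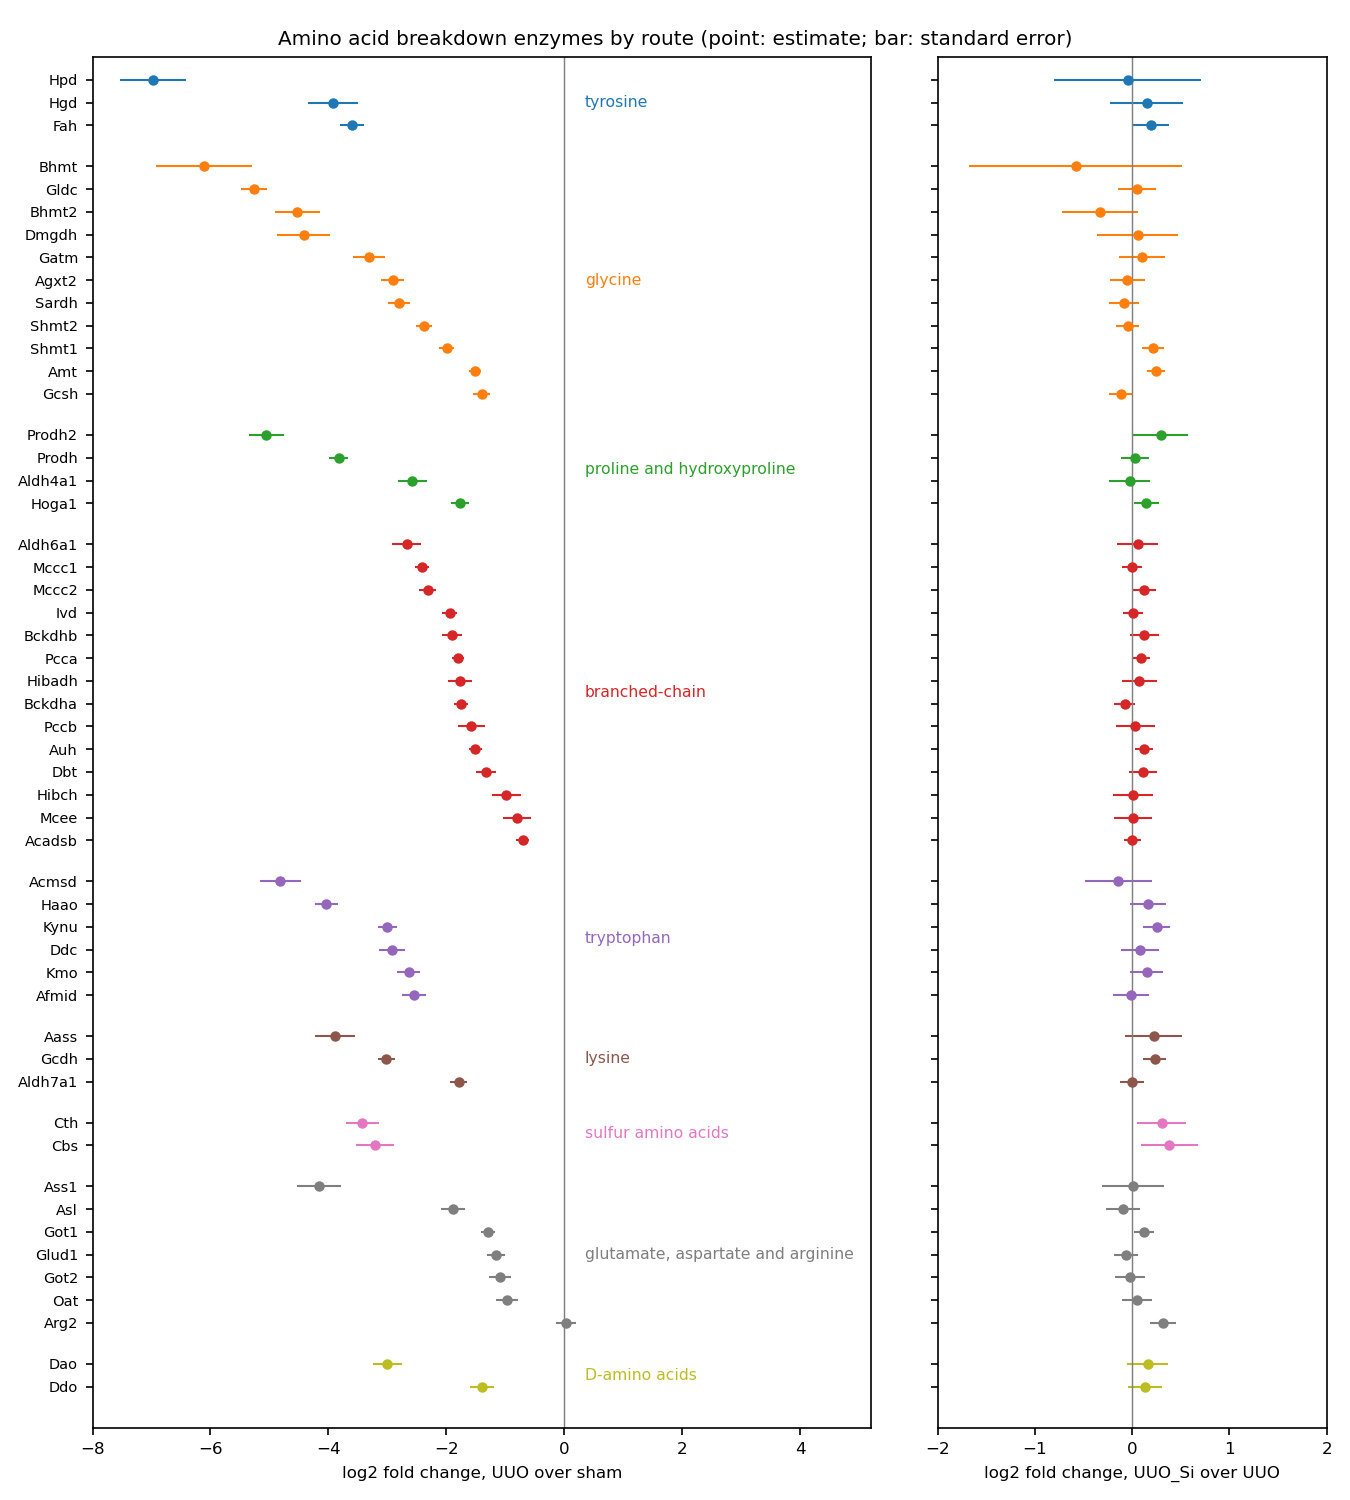
Log2 fold change (x axis) of each of the 52 tested members (y axis, coloured by route) in UUO over sham, left, and in UUO_Si over UUO, right; points are estimates and bars standard errors. On the left 51 points lie below 0 and Arg2 lies at 0.03; on the right the points lie between -0.58 (Bhmt, at 2.66 without the 4 libraries with receptor-gene counts) and 0.38.

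The tyrosine route, which turns the ring of tyrosine into fumarate and acetoacetate, fell in all 3 members. Hpd, the dioxygenase that makes homogentisate, lies at chr5:123171807-123182727 on the minus strand of GRCm38. Its level was 105, 76.1 and 59.9 CPM (counts per 1000000 counts of the scaled library) in the sham libraries, while the UUO libraries had a lowest value of 0, a median of 0.370 and a highest value of 1.41 CPM. The groups lie far apart, and the UUO libraries hold few or no reads: 51 counts over 6 libraries, 39 of them in replicates 5 and 6. The log2 fold change was -6.98 ± 0.56 (SE, adjusted p = 1.99e-08), and -8.57 without the 4 libraries with receptor-gene counts.

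Hgd, which opens the homogentisate ring, stood at 214, 212 and 178 CPM in sham and at 7.20, 10.2 and 24.8 CPM (lowest, median, highest) in UUO. The fold change was -3.92 ± 0.42 on the log2 scale (adjusted p = 5.78e-07), and -4.60 without those 4 libraries. For Fah, the last enzyme of the route, sham libraries held 254, 234 and 206 CPM and UUO libraries 15.1, 17.2 and 25.2 CPM. Its log2 fold change was -3.60 ± 0.21 (adjusted p = 5.76e-10). In UUO the order of the levels per length was Fah (8.60 CPM per kb), Hgd (5.07) and Hpd (0.289), and Hpd had dropped from rank 24 of 53 members in sham to rank 51.

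The glycine route fell in all 11 members tested, with Bhmt, Bhmt2, Dmgdh and Sardh at a median of -4.47. Bhmt, which moves a methyl group from betaine to homocysteine, had 38.8, 22.2 and 19.9 CPM in sham. It had no counts in UUO replicates 1 to 4, and 1.08 and 1.16 CPM in replicates 5 and 6. All 31 UUO counts of Bhmt thus came from the 2 UUO libraries with receptor-gene counts. The fitted log2 fold change was -6.11 ± 0.81 (adjusted p = 6.29e-06), -6.87 without UUO replicate 5 and -6.73 without UUO replicate 6. Without the 4 libraries Bhmt was at least 539.6-fold lower in UUO, taking 3 counts over the group as the limit that a count of 0 allows, for counting error only.

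Bhmt2, the paralogue that uses S-methylmethionine, held 72.2, 65.5 and 57.4 CPM in sham and 1.36, 2.23 and 4.88 CPM in UUO. Dmgdh, the next enzyme on the way from betaine and the neighbour of Bhmt2 in the genome, held 112, 107 and 99.3 CPM in sham and 2.54, 3.34 and 9.19 CPM in UUO. For both genes the groups lie apart, and the 2 highest UUO libraries were replicates 5 and 6. Their log2 fold changes were -4.52 ± 0.39 (adjusted p = 4.21e-08) and -4.42 ± 0.45 (adjusted p = 2.7e-07), or -5.19 and -5.17 without the 4 libraries. The log2 ratio of Bhmt2 to Dmgdh was -0.73 ± 0.32 (SD) in UUO and -0.71 ± 0.08 in sham, and the values overlapped. Sardh, which demethylates sarcosine to glycine, fell by 2.80 on the log2 scale (SE 0.18, from 399.9 ± 55.8 to 57.3 ± 12.9 CPM).

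Glycine itself is split by a complex of which Gldc (decarboxylase), Amt (aminomethyltransferase) and Gcsh (lipoyl carrier) were members, and these parts did not move equally. Gldc lies at chr19:30098447-30175429 on the minus strand and had rank 6 per length in sham. It had 584, 638 and 481 CPM in sham and 12.1, 14 and 17.7 CPM in UUO, a log2 fold change of -5.26 ± 0.22 (adjusted p = 3.43e-11). Amt had 76.2, 58.8 and 57.0 CPM in sham and 20.7, 22.2 and 25.5 CPM in UUO, a change of -1.51 ± 0.11 (adjusted p = 6.01e-09). Gcsh had 58.7, 60.6 and 61.8 CPM in sham and 17.1, 22.1 and 28.5 CPM in UUO, a change of -1.40 ± 0.15 (adjusted p = 3.74e-07), the smallest of the route.

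Gldc thus went from 7.66 to 10.9 times the CPM of Amt in sham to 0.519 to 0.856 times in UUO and 0.361 to 0.774 times in UUO_Si. Against Gcsh the ratio was 7.79 to 10.5 in sham and 0.464 to 0.812 in UUO. Amt and Gcsh kept a ratio of 0.923 to 1.30 in sham and 0.725 to 1.49 in UUO, with overlap. The comparison of these 3 genes was picked after their values had been seen, and no result of a test is read from it.

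Serine hydroxymethyltransferase, which interconverts glycine and serine, has a cytosolic form (Shmt1) and a mitochondrial form (Shmt2). Shmt1 had 101, 102 and 77.9 CPM in sham and 22.7, 23.6 and 24.1 CPM in UUO, and Shmt2 had 202, 183 and 119 CPM in sham and 28.0, 31.4 and 36.0 CPM in UUO. For both forms all sham libraries lay above all UUO libraries, with sham replicate 3 the lowest of its group. The log2 fold changes were -2.0 ± 0.13 (adjusted p = 2.51e-09) and -2.38 ± 0.14 (adjusted p = 5.09e-10).

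Agxt, the peroxisomal glyoxylate aminotransferase of liver, had 8 counts in sham, 7 in UUO and 2 in UUO_Si, and was not tested. All 8 sham counts were in sham replicate 3, and both UUO_Si counts in replicate 6, which are among the libraries with receptor-gene counts. Of the 7 UUO counts, 4 were in such libraries and 3 in UUO replicate 1, which is not among them. Its mitochondrial paralogue Agxt2, a kidney and liver enzyme that acts on glyoxylate and on methylated arginines, had 57.0, 58.5 and 38.5 CPM in sham and 4.37, 7.03 and 8.86 CPM in UUO, a change of -2.91 ± 0.20 (adjusted p = 3.69e-09). Gatm, which makes guanidinoacetate for creatine, had rank 3 per length in sham (110.5 CPM per kb) and rank 13 in UUO (11.2). It fell by 3.31 on the log2 scale (SE 0.27, adjusted p = 2.67e-08).

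**Figure D2:**
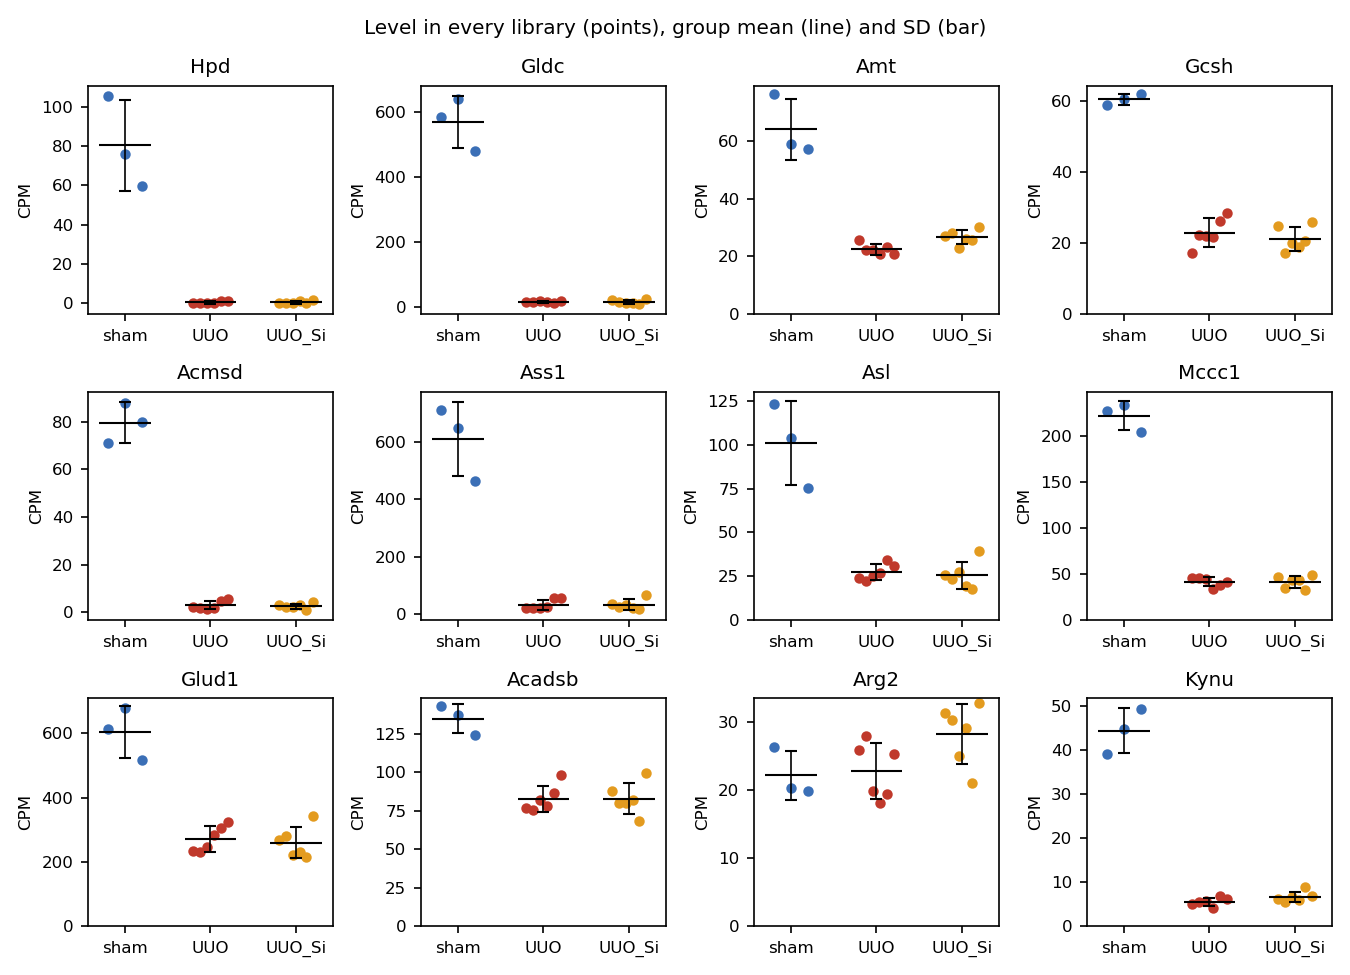
Level in CPM (y axis, linear, from about 0) of 12 members in each library (points) of the 3 groups, with group mean (line) and SD (bar). Gldc lies at 481 CPM or more in sham and at 23.4 CPM or less in every obstructed library, whereas the 3 groups overlap for Arg2.

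All 4 members of the proline and hydroxyproline route fell. Prodh, which oxidises proline, had 652, 604 and 323 CPM in sham and 30.4, 37.5 and 41.5 CPM in UUO. Prodh2, which oxidises hydroxyproline and whose upstream DNA is printed above, had 206, 219 and 115 CPM in sham and 2.28, 5.73 and 7.74 CPM in UUO. Sham replicate 3 was the low library for both, and still above every UUO library. The changes were -3.83 ± 0.17 (adjusted p = 4.68e-11) and -5.06 ± 0.30 (adjusted p = 7.39e-10). Hoga1, the aldolase that ends hydroxyproline breakdown with glyoxylate, had the smallest change of the route, -1.77 ± 0.15 (99.4, 91.4 and 62.5 CPM in sham; 19.8, 24.1 and 30.03 CPM in UUO; adjusted p = 3.25e-08). Aldh4a1, the dehydrogenase shared by proline and hydroxyproline, changed by -2.58 ± 0.24.

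All 14 members of the branched-chain route fell, by less than most other members. Leucine, isoleucine and valine are first transaminated, their keto acids are then oxidised by a shared dehydrogenase complex, and a separate arm follows for each. The subunits of the complex changed by -1.75 ± 0.12 (Bckdha), -1.91 ± 0.17 (Bckdhb) and -1.32 ± 0.17 (Dbt), and the log2 ratio of Bckdha to either partner overlapped between UUO and sham. In the leucine arm, Mccc1 and Mccc2, the subunits of methylcrotonyl-CoA carboxylase, changed by -2.42 ± 0.12 and -2.32 ± 0.14, Ivd by -1.94 ± 0.12 and Auh by -1.51 ± 0.11. Mccc1 had 227, 234 and 204 CPM in sham and 34.0, 42.6 and 46.0 CPM in UUO (adjusted p = 1.45e-10).

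The valine arm held the largest fall of the route. Aldh6a1, the methylmalonate semialdehyde dehydrogenase, had 429, 386 and 394 CPM in sham and 47.3, 54.5 and 96.7 CPM in UUO, a change of -2.67 ± 0.24 (adjusted p = 7.95e-08). Hibadh and Hibch, earlier in that arm, changed by -1.77 ± 0.21 and -0.98 ± 0.25. Acadsb, the dehydrogenase of the isoleucine arm, had the smallest change of the route. Its levels were 143, 137 and 124 CPM in sham and 75.3, 80.1 and 98.2 CPM in UUO, which do not overlap, with a change of -0.71 ± 0.11 (adjusted p = 2.94e-05).

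Propionyl-CoA, the shared end product of valine and isoleucine, is carboxylated by Pcca and Pccb, which changed by -1.81 ± 0.11 and -1.58 ± 0.23. Mcee, the epimerase that follows, had 21.6, 34.5 and 22.0 CPM in sham and 12.4, 13.5 and 19.8 CPM in UUO, a change of -0.80 ± 0.24 (adjusted p = 0.00845). That call rests on sham replicate 2: without it the change was -0.53 (adjusted p = 0.109).

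The tryptophan route fell in all 6 members. Acmsd, which steers the kynurenine pathway away from NAD synthesis, lies at chr1:127729413-127767978 on the plus strand. It had 70.9, 88.1 and 79.9 CPM in sham and 1.36, 2.05 and 5.29 CPM in UUO, where replicates 5 and 6 were the highest. The change was -4.81 ± 0.34 (adjusted p = 4.85e-09), and -5.47 without the 4 libraries with receptor-gene counts. Haao, which makes the substrate of Acmsd, had 90.1, 83.1 and 76.7 CPM in sham and 3.21, 5.44 and 6.28 CPM in UUO, a change of -4.04 ± 0.20 (adjusted p = 1.14e-10).

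The steps before Haao fell less. Kynu (kynureninase) changed by -3.0 ± 0.16, Kmo (the kynurenine hydroxylase) by -2.64 ± 0.19 and Afmid (the formamidase that releases kynurenine) by -2.55 ± 0.21, the smallest of the route. Afmid had 60.9, 62.0 and 43.2 CPM in sham and 6.95, 8.61 and 13.6 CPM in UUO (adjusted p = 2.18e-08). Ddc, the decarboxylase that makes dopamine in the proximal tubule and serotonin elsewhere, changed by -2.92 ± 0.22. Read by order of the pathway, the changes from Afmid, Kmo and Kynu to Haao and Acmsd were -2.55, -2.64, -3.0, -4.04 and -4.81, which was noticed after the values were seen and was not tested.

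The lysine route fell in all 3 members. Aass, the enzyme that starts lysine breakdown through saccharopine, had 246, 206 and 194 CPM in sham and 8.05, 12.3 and 23.0 CPM in UUO, a change of -3.89 ± 0.33 (adjusted p = 4.06e-08). Gcdh, the glutaryl-CoA dehydrogenase shared with tryptophan, had 218, 197 and 162 CPM in sham and 20.3, 23.1 and 28.8 CPM in UUO, a change of -3.02 ± 0.14 (adjusted p = 5.81e-11). Aldh7a1, which acts between them, had 244, 237 and 167 CPM in sham and 53.2, 61.0 and 73.8 CPM in UUO. Its change of -1.79 ± 0.14 (adjusted p = 1.99e-08) was the smallest of the 3, and in each of them UUO did not overlap with sham.

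Both sulfur amino acid enzymes fell. Cbs, which joins homocysteine and serine, had 63.9, 60.4 and 57.4 CPM in sham and 3.62, 5.06 and 10.6 CPM in UUO, and Cth, which releases cysteine from the product, had 119, 114 and 119 CPM in sham and 6.27, 9.53 and 18.2 CPM in UUO. The changes were -3.21 ± 0.33 (adjusted p = 2.71e-07) and -3.42 ± 0.29 (adjusted p = 2.93e-08). In both genes UUO replicates 5 and 6 were the highest of their group and far below sham.

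In the glutamate, aspartate and arginine route 6 of 7 members fell. Ass1, which joins citrulline and aspartate on the way to arginine, lies at chr2:31470207-31520672 on the plus strand and was the highest member per length in sham (253 CPM per kb). Its levels were 713, 650 and 466 CPM in sham and 21.3, 24.8 and 56.6 CPM in UUO, with replicates 5 and 6 the highest of the UUO group. The change was -4.16 ± 0.38 (adjusted p = 7.41e-08), and -4.87 without the 4 libraries. Asl, the next step, had 123, 104 and 75.4 CPM in sham and 22.3, 25.9 and 34.2 CPM in UUO, a change of -1.89 ± 0.21 (adjusted p = 6.19e-07). Ass1 went from 5.79 to 6.26 times the CPM of Asl in sham to 0.851 to 1.82 times in UUO, a comparison picked after the values had been seen.

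Glud1, glutamate dehydrogenase, had 615, 681 and 517 CPM in sham and 231, 265 and 325 CPM in UUO, a change of -1.16 ± 0.15 (adjusted p = 4.25e-06). It was the highest member per length in UUO, at 64.4 CPM per kb, followed by Oat (ornithine aminotransferase) at 56.1, a difference within their spread (SD 9.50 and 12.8). The aspartate aminotransferases fell by similar amounts, with -1.30 ± 0.12 for the cytosolic Got1 (adjusted p = 8.83e-08) and -1.08 ± 0.19 for the mitochondrial Got2 (adjusted p = 0.000111). Oat had the smallest change among those that fell, -0.97 ± 0.18 (277, 264 and 239 CPM in sham; 107, 121 and 173 CPM in UUO; adjusted p = 0.000228).

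Arg2, which splits arginine into urea and ornithine in mitochondria, had 26.4, 20.3 and 19.9 CPM in sham and 18.1, 22.6 and 28.0 CPM in UUO. The groups overlap throughout, and the difference of 0.03 ± 0.17 did not pass (adjusted p = 0.886). Its rank per length went from 45 of 53 members in sham to 6 in UUO. Exons of Arg2 overlap those of Vti1b on the opposite strand, and no strand setting is given for the counting, so reads of these genes could not be told apart.

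Of the oxidases of D-amino acids, Dao acts on neutral and Ddo on acidic ones, and both fell. Dao had 228, 205 and 154 CPM in sham and 17.9, 21.0 and 34.8 CPM in UUO, a change of -3.0 ± 0.24 (adjusted p = 1.86e-08). Ddo had 65.3, 69.0 and 56.3 CPM in sham and 17.9, 23.4 and 34.3 CPM in UUO, a change of -1.39 ± 0.21 (adjusted p = 2.19e-05). The UUO libraries did not order alike: replicates 5 and 6 had the highest levels of Dao and the lowest of Ddo.

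Paralogues and subunits were also compared within each library, as the log2 ratio of their CPM, with an exact two-sided permutation test between UUO and sham adjusted over 13 pairs, some of them picked after values had been seen. The smallest p that 3 against 6 libraries allow is 0.0119. The 13 include Gldc with Amt, Gldc with Gcsh and Ass1 with Asl, picked after their values had been seen and also at that smallest p. Such pairs lower the adjusted p of the other pairs, so no pass is read from it. Prodh2 fell more than Prodh (difference in the log2 ratio of Prodh to Prodh2 1.27, exact permutation p = 0.0119, adjusted p = 0.031), and Shmt2 more than Shmt1 (difference 0.37, exact permutation p = 0.0119, adjusted p = 0.031). In both pairs, and also for Dao with Ddo and Bhmt with Bhmt2, the ratios of the groups did not overlap. For Dao against Ddo the difference was -1.60 (exact permutation p = 0.0238, adjusted p = 0.0516). It was -1.58 for Bhmt against Bhmt2 (exact permutation p = 0.0357, adjusted p = 0.0663). The size of that difference rests on the prior count, because Bhmt had no counts in 4 UUO libraries. The difference between the fitted fold changes of Bhmt and Bhmt2 was -3.67 in limma-voom, -3.62 with a replicate block and -6.09 without the 4 libraries with receptor-gene counts. The subunits of the 3 complexes and carboxylases of the branched-chain route (Bckdha with Bckdhb or Dbt, Mccc1 with Mccc2, Pcca with Pccb) and Got1 with Got2 had overlapping ratios, with differences between -0.40 and 0.17.

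**Figure D3:**
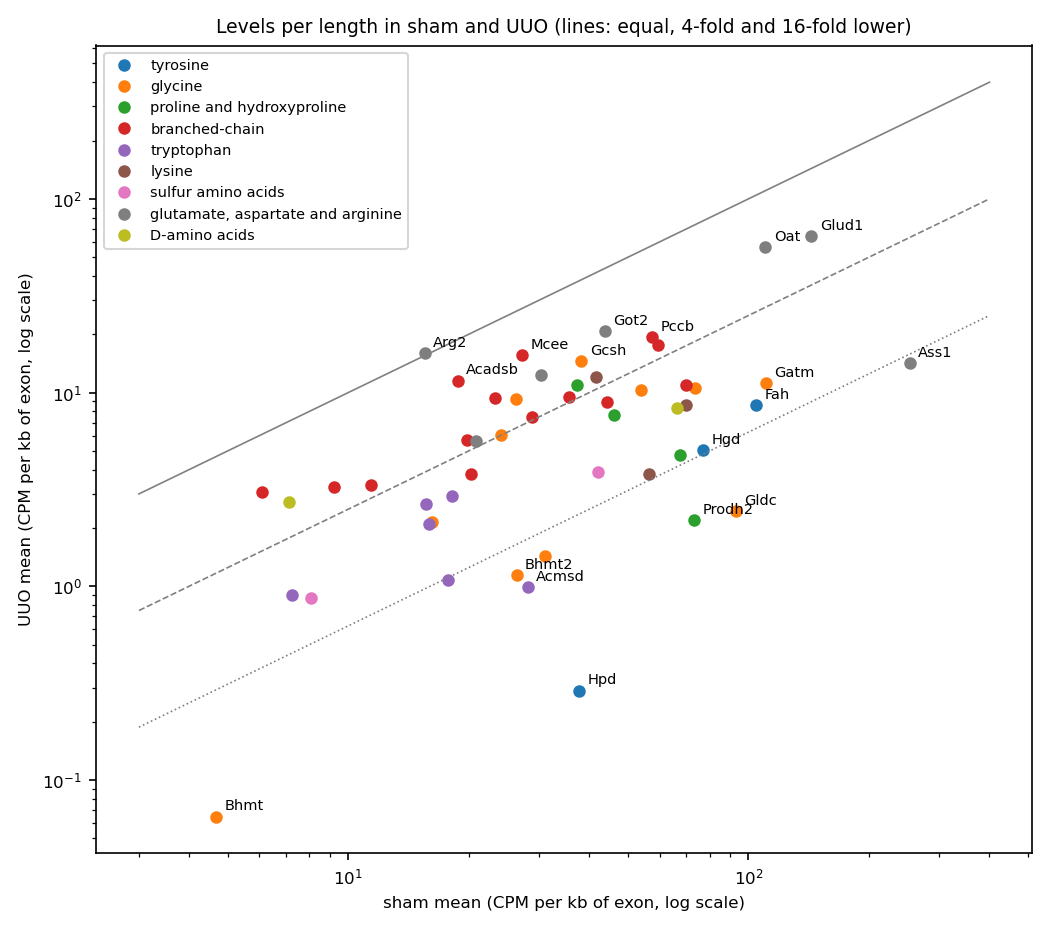
Mean level per kb of exon in sham (x axis) and UUO (y axis), both on log scales, for the 52 members other than Agxt, coloured by route; grey lines mark equal levels and levels 4-fold and 16-fold lower in UUO. Arg2 lies on the line of equal levels, Glud1 and Oat have ranks 2 and 4 in sham and the highest levels in UUO, and Hpd and Bhmt lie farthest below the 16-fold line.

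The unequal falls changed the make-up of the summed enzyme transcripts. The glycine route went from 22.3% ± 0.352 (SD) of the members' summed CPM in sham to 13.0% ± 0.359 in UUO, and tyrosine from 5.93% ± 0.149 to 1.88% ± 0.381. Tryptophan went from 4.88% ± 0.427 to 2.71% ± 0.176 and lysine from 7.19% ± 0.219 to 5.90% ± 0.260. The branched-chain share went from 21.3% ± 1.88 to 30.4% ± 0.984, and that of glutamate, aspartate and arginine from 21.7% ± 0.344 to 36.1% ± 1.84. Sham and UUO libraries did not overlap in any of these 6 shares. Shares in CPM weigh long transcripts more, and a larger share here goes with a lower level, since all 6 routes had lower sums in UUO.

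**Figure D4:**
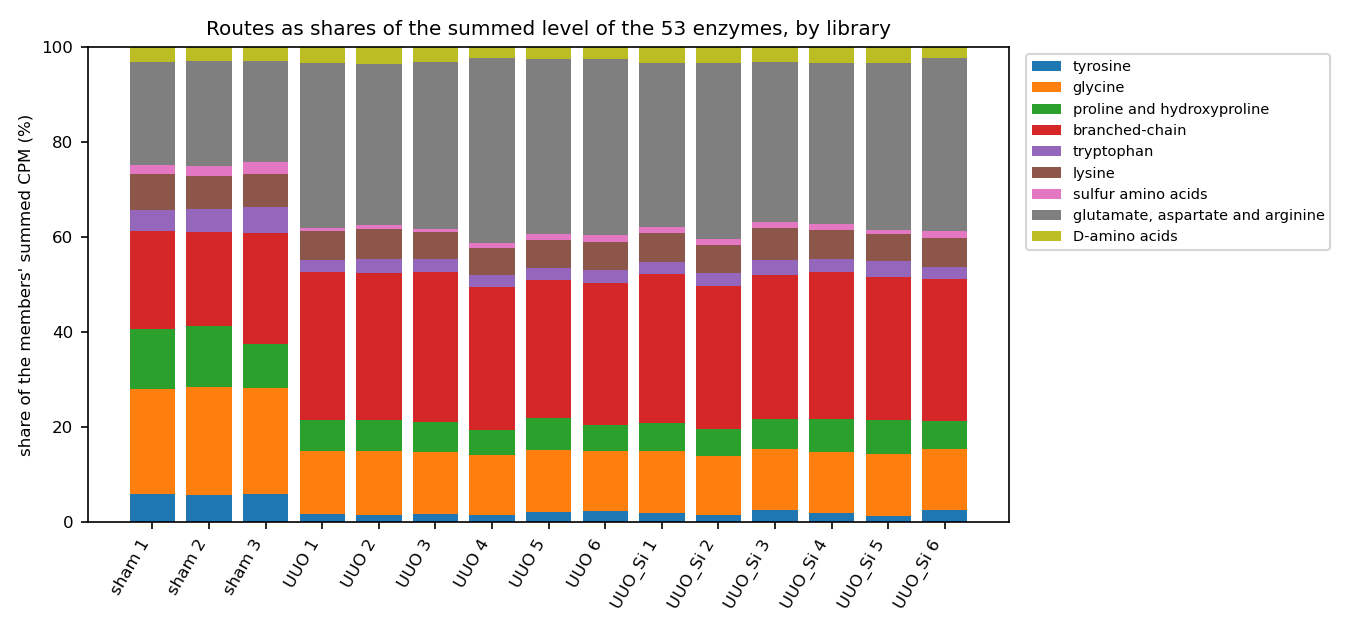
Share of the members' summed CPM (y axis, percent) taken by each route in each of the 15 libraries (x axis). Glycine takes 22.0% to 22.7% in sham and 12.4% to 13.5% in the obstructed libraries, and the UUO and UUO_Si bars look alike.

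Other genes of amino acid metabolism, 73 drawn up by route with earlier results known, moved less evenly. Of 65 tested, 48 fell, 5 rose and 12 did not pass in UUO against sham, with a median log2 fold change of -1.32. All 3 tested genes of histidine breakdown fell (median -3.58). The largest changes were those of Aspa, which splits acetylaspartate (-4.19 ± 0.18), and Aadat, a kynurenine and aminoadipate aminotransferase (-4.14 ± 0.40). Among those that rose were Aldh18a1, which starts proline synthesis (1.75 ± 0.17, adjusted p = 1.28e-07), Asns, asparagine synthetase (1.66 ± 0.23, adjusted p = 8.74e-06), Phgdh, the entry to serine synthesis (0.72 ± 0.17, adjusted p = 0.00152), and Asrgl1, an asparaginase (0.52 ± 0.20, adjusted p = 0.0389).

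The second comparison asked whether the Si-based diet changed these enzymes in obstructed kidneys. No member passed between UUO_Si and UUO (0 of 52 in edgeR, DESeq2 and limma-voom; 0% of all genes in edgeR), and 2 of 52 had an unadjusted p under 0.05 in edgeR, against 3.74% of all genes. The median log2 fold change of the members was 0.06, against 0.00 over all genes, and 37 of 52 lay above 0, against 50.3% of all genes. No member had groups that did not overlap, against 0.0955% (lower) and 0.107% (higher) of all genes. Without UUO_Si replicate 6 the members' median was -0.05, and without the 4 libraries with receptor-gene counts it was 0.14 (-0.01 over all genes). In that fit Cbs, Cth, Hoga1, Gcdh, Dao, Aass and Kynu had an unadjusted p under 0.05 in edgeR, while Amt and Arg2 did not. The differences of those that did lay between 0.24 (Gcdh) and 0.72 (Cbs), and none passed (edgeR adjusted p = 0.936 each). The share of all genes at that p was not counted there.

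The 6 members with the smallest p, none of which passed (adjusted p = 0.999 each in edgeR), came from 5 routes. Amt had 22.9, 26.4 and 30.2 CPM in UUO_Si (lowest, median, highest) against 20.7, 22.2 and 25.5 CPM in UUO, a difference of 0.25 ± 0.09. Arg2 had 21.1, 29.7 and 32.8 CPM against 18.1, 22.6 and 28.0 CPM, a difference of 0.32 ± 0.13. With all libraries these were the 2 with an unadjusted p under 0.05, and in both the groups overlapped.

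Gcdh stood at 23.7, 26.4 and 37.2 CPM in UUO_Si, 0.23 ± 0.12 above UUO. Shmt1 stood at 19.3, 27.3 and 35.6 CPM, 0.21 ± 0.12 above UUO, and its UUO_Si libraries spread more widely (SD 5.35 against 0.542). Kynu stood at 5.55, 6.36 and 8.79 CPM, a difference of 0.25 ± 0.14. Cbs stood at 5.28, 7.39 and 13.7 CPM, a difference of 0.38 ± 0.29, or 0.72 without the 4 libraries with receptor-gene counts. All these ranges overlapped with those of UUO. By route the medians lay between -0.05 (glycine) and 0.34 (sulfur amino acids), with 0.15 for tyrosine, 0.05 for branched-chain, 0.11 for tryptophan and 0.22 for lysine.

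Hpd and Bhmt, the members with the largest falls, were near the limit of detection on either diet. Hpd had 0, 0.302 and 1.58 CPM in UUO_Si, and Bhmt had counts only in UUO_Si replicates 2 and 6 (3 and 12 counts). Neither passed between the diets, and without the 4 libraries with receptor-gene counts the difference of Bhmt turned from -0.58 to 2.66 (edgeR adjusted p = 0.936) and that of Hpd from -0.05 to 0.67 (adjusted p = 0.964). Gldc stood at 9.30, 13.9 and 23.4 CPM and Ass1 at 18.8, 28.9 and 68.0 CPM, ranges that take in those of UUO. The proximal tubule markers summed to 0.146% ± 0.049 of the scaled library size in UUO_Si and 0.127% ± 0.039 in UUO. The fibroblast markers summed to 4998 to 6955 CPM in UUO_Si. In UUO replicates 1 to 3 their sum was 5864, 6259 and 6278 CPM, within that range, and in replicates 4 to 6 it was 10901, 11144 and 9956 CPM. Of the 10 fibroblast markers all lay below 0 in this contrast (median -0.55), and 9 had an unadjusted p under 0.05 in edgeR. That p was also reached by 3 of 8 loop of Henle and distal tubule markers (7 of 8 above 0, median 0.38), 3 of 6 urothelial markers (5 of 6 below 0, median -0.85) and 2 of 8 collecting duct markers (6 of 8 above 0, median 0.18). It was reached by none of the 12 proximal tubule markers, and no marker of any list passed the test after adjustment. What part the cell markers have in these values was not tested.

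The third comparison set UUO_Si against sham and shares its sham libraries with the first. Here too 51 of 52 members fell and none rose, where 25.5% of all genes fell and 27.2% rose, with a median of -2.46. In 50 of 52 every UUO_Si library lay below every sham library, against 21.8% of all genes; Mcee, at 10.2, 14.5 and 22.6 CPM in UUO_Si, was the fallen member that overlapped. No call differed from the first comparison. Arg2 had a difference of 0.35 ± 0.17 that did not pass (adjusted p = 0.0995), but passed without sham replicate 1 (0.51, adjusted p = 0.0482) or without UUO_Si replicate 5 (0.42, adjusted p = 0.0407). Mcee changed by -0.79 ± 0.24 (adjusted p = 0.0102), and by -0.51 without sham replicate 2 (adjusted p = 0.119).

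Side by side, the changes against sham in UUO and in UUO_Si were -6.98 and -7.03 for Hpd, -5.26 and -5.21 for Gldc, -4.81 and -4.96 for Acmsd, and -4.16 and -4.15 for Ass1. Bhmt had -6.11 and -6.69. In UUO_Si, replicate 6 held 19 of 36 counts of Hpd and 12 of 15 counts of Bhmt. Without it their changes were -7.74 and -8.46, against -7.90 and -8.62 without all 4 libraries with receptor-gene counts.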

How the data were processed

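The deposited table gives expected counts per gene symbol for 15 libraries. Per the submitters' processing notes, mm10, TopHat2 (2.1.1) and Cuffdiff (2.2.1) were used; their roles, the annotation and the strand setting are unknown here. Per the labels' protocols, RNA from kidneys kept in RNAlater was made into libraries with a stranded total RNA kit (SMARTer Pico v2). In each library 79.0% to 83.0% of the values were whole, and all were rounded; 33 members were whole in every library.

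One model with a mean per group was fitted to all 15 libraries with edgeR 4.0.16 (R 4.3.3), using TMM scaling, filterByExpr with a minimum count of 10, and the robust quasi-likelihood test, two-sided, with Benjamini-Hochberg adjustment over all genes tested and a threshold of 0.05. A prior count of 2 was used for log2 CPM, as in the ratios within libraries, while edgeR fold changes use its default. A standard error is the absolute log2 fold change divided by the square root of F. CPM are on scaled library sizes, and levels per kb use the union of exons in GENCODE M21 (GRCm38), from which positions also come. The fitting code was tested on simulated data.

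As alternatives, scaling was changed to RLE or upper quartile, the minimum count was dropped or raised to 30, and the remaining ones were DESeq2 1.42.0, limma-voom (limma 3.58.1) with sample weights, removal of Rn45s and haemoglobin genes, fits of 2 groups, removal of the 4 libraries with over 500 receptor genes detected, a replicate block, and each library left out in turn. The members, the 73 other genes, the 82 markers in 10 lists and these choices were made with earlier results of these data known. Named in full are, per route, the 2 largest and the smallest change against sham, members that did not pass, paralogue pairs and, for the diet, the 6 smallest p; other members are named in the order of their pathway. Among the other genes, 1 that rose is not reported here by name.

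Exons of 14 members overlap a gene on the opposite strand in GENCODE M21 (Acmsd, Afmid, Aldh6a1, Aldh7a1, Arg2, Bckdha, Bhmt, Dmgdh, Got2, Mccc1, Pcca, Sardh, Shmt1 and Shmt2) and those of 5 a gene on the same strand (Afmid, Agxt2, Aldh4a1, Hibadh and Hoga1), so their counts are less certain.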

Additional observations from a re-analysis of the deposited data

Results flagged for a closer look

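Among 104 groups of 6 obstructed libraries (52 members in UUO and in UUO_Si), 5 held a library whose gap to its nearest neighbour exceeded 0.625 of the group's range. Chance sets apart about 1 group in 20. UUO_Si replicate 6, a library with receptor-gene counts, was the high one in 4 of them. It held 0.9996 CPM of Bhmt against 0 to 0.308 in the other UUO_Si libraries, 62.1 CPM of Aldh4a1 against 27.4 to 37.9, 30.4 CPM of Hibch against 14.03 to 19.7, and 68.0 CPM of Ass1 against 18.8 to 37.0. UUO_Si replicate 5 held 8.79 CPM of Kynu against 5.55 to 6.75. These members did not pass between UUO_Si and UUO.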

How the results depend on the processing

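In 24 of 25 alternatives 51 members passed as lower against sham in each obstructed group; without sham replicate 2 there were 50, since Mcee did not pass. No member passed between the diets in any of the 25. The members' median lay between -2.61 and -2.41 (UUO against sham), -2.63 and -2.39 (UUO_Si against sham) and -0.05 and 0.14 (UUO_Si against UUO). Arg2, which did not pass in UUO against sham under any alternative, had a difference of -0.012 with a minimum count of 30, -0.050 in limma-voom and -0.020 without the 4 libraries with receptor-gene counts, and of -0.037 to 0.19 when 1 library was left out. In UUO_Si against sham the count of higher members ranged from 0 to 1 when 1 library was left out, the 1 being Arg2. The labels do not say whether the same numbers pair samples. Of 12 same-numbered pairs 6 had a correlation of deviations over 0.1, the highest being 0.754 for UUO and UUO_Si replicate 6. Both of these are libraries with receptor-gene counts. The lowest correlation was -0.390, for UUO and UUO_Si replicate 5, of which only the UUO library has such counts. Of 6 UUO libraries 1 correlated best with its own number in UUO_Si. These values do not settle whether samples were paired. A replicate block left 51 members lower and called 1 higher in UUO_Si against sham (Arg2, 0.42, edgeR adjusted p = 0.0263). The block and limma-voom moved Hpd in UUO against sham to -8.54 and -8.21 and Bhmt to -8.61 and -8.68, and in UUO_Si against sham Hpd to -8.62 and -8.15 and Bhmt to -9.23 and -7.96; the cause was not tested. Without the 4 libraries every route median in UUO against sham was farther from 0: -4.60 for tyrosine, -3.80 for sulfur amino acids, -3.55 for proline, -3.24 for glycine, -3.23 for lysine, -3.14 for tryptophan, -2.38 for D-amino acids, -1.87 for branched-chain amino acids and -1.37 for glutamate, aspartate and arginine. The lysine median between the diets was -0.04 without UUO_Si replicate 6. Depth limits Hpd, Bhmt and Agxt most, since obstructed libraries held few of their counts.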
